A study of Bos taurus with 34 samples.

Results

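Peripheral white blood cells (PWBC) are the leukocytes of circulating blood, a mixture of neutrophils, lymphocytes, monocytes and rarer cells. Their mRNA was compared here between heifers that became pregnant and heifers that did not. Of the 34 libraries of the series, the 17 PWBC libraries were used, 1 per heifer. They came from 6 heifers pregnant to artificial insemination (AI-preg), 6 heifers pregnant later to natural breeding with bulls (NB-preg) and 5 heifers that did not conceive in the season (non-pregnant). The AI-preg and NB-preg heifers were pooled into 1 pregnant group of 12, so that the question was whether blood drawn at AI differed by the outcome of the whole breeding season. Genes were kept when they reached 2 CPM (read pairs of the gene scaled to a common library total) in 5 or more libraries, which left 10942 of 27570 genes.

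All heifers were Angus-Simmental crossbreds in the second year of life, in estrus synchronized with a CIDR (an insert that releases progesterone) and inseminated at a fixed time with semen of 1 sire. Bulls were introduced later in the same season. Blood was drawn right after insemination, before the outcome existed, and kept on ice for hours before the buffy coat was separated and its red cells lysed. No treatment separated the groups. The groups were defined afterwards by outcome alone, a single observation per animal that does not say whether fertilization, the embryo or the uterus failed. Other differences between the animals or their libraries were not excluded. The heifers were separate animals of 1 herd and year. A further non-pregnant library had been removed by the authors for its low yield of reads.

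Neutrophils are the first leukocytes to reach a site of infection. They carry receptors for growth factors, complement and cytokines, kill microbes with an oxidase and with granule proteins, and are made in the bone marrow under the control of granulocyte colony-stimulating factor. In cattle, their number and activity in blood vary with stress and glucocorticoids. The RNA of a whole buffy coat sums all cells, so a gene can differ because its cells differ in number or because each cell holds more of its mRNA. These cannot be told apart in bulk samples.

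The libraries were not alike in depth. Between 15353819 and 67192941 read pairs were counted on genes in AI-preg heifers. The range was 6402207 to 56867279 in NB-preg and 4184999 to 20164587 in the non-pregnant group. The total over tested genes was 2.64-fold higher in pregnant heifers by geometric mean (exact permutation test, two-sided, p = 0.0218 over 6188 arrangements), and without heifer 101, the shallowest library, it was 2.14-fold higher (exact permutation p = 0.0797). The 5 non-pregnant libraries were also unlike each other. Across the tested genes, heifers 94, 107 and 113 each had their highest Spearman correlation of log2(CPM + 1) with another non-pregnant heifer, at 0.91 to 0.94. Heifer 101 was closest to AI-preg heifer 99, at 0.98, and heifer 115 was closest to AI-preg heifer 119, at 0.92. These are correlations over genes, which are not independent replicates. Heifer 115 had 7565 genes at 2 CPM or more, the fewest of the 17, against 8269 to 10323 in the pregnant heifers.

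No gene passed an adjusted p of 0.05 in edgeR's quasi-likelihood test (percent called 0), where the smallest adjusted p was 0.447. At an unadjusted p under 0.05 the same test gave 578 genes higher (5.28% of those tested) and 507 genes lower (4.63%) in non-pregnant heifers. On the same counts, edgeR's likelihood ratio test passed 19 genes higher and 0 lower at the adjusted threshold, DESeq2 passed 59 higher and 2 lower, and limma voom with sample quality weights passed 2283 higher and 3240 lower. That last fit weighted the libraries unequally, with a weight of 5.83 for heifer 107 and 0.154 for heifer 115. The scaling also moved the split. Higher genes made up 53.3% of the nominal calls with library totals, 67.1% with edgeR's TMM factors and 81.0% with DESeq2. The median log2 fold change over all genes was -0.12, -0.05 and 0.12 in these 3 fits.

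The authors' own rule was then applied, under which edgeR's likelihood ratio test and DESeq2 must each give a nominal p no higher than 0.03, with all heifers and again without each of them in turn. It is called the nominal rule below. It gave 127 genes higher (1.16% of those tested) and 39 genes lower (0.356%) in non-pregnant heifers. The p-values of this rule are not adjusted for the number of genes. For its own contrasts, the paper states that this nominal p matched an empirical false discovery rate of at most 0.05, estimated by reshuffling samples. That estimate was not repeated here for the pooled contrast. Fold changes below are log2 differences, non-pregnant minus pregnant, from the edgeR quasi-likelihood fit with their standard errors, and none of the genes passed the adjusted threshold in that fit. The median higher gene had a log2 fold change of 2.22, or 4.65-fold, and its range over the 127 genes was 1.07 to 4.20. The median lower gene stood at -1.62, or 3.07-fold lower, in a range from -5.54 to -0.87. These sizes describe genes that the rule had selected on this contrast. In DESeq2, 56 of the 127 higher genes and 2 of the 39 lower genes had an adjusted p under 0.05. Others described below did not reach it. Their DESeq2 adjusted p was 0.065 for S100A12, 0.11 for SPI1, 0.14 for IL1B, 0.13 for IFIT2 and 0.16 for C5AR1.

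Which heifers carried the difference was not the same for the 2 directions. Heifer 107 exceeded every pregnant heifer in 126 of the 127 higher genes, and heifers 94 and 113 in 120 each. Heifer 101 did so in 19 and heifer 115 in 15. Against the pregnant median, heifer 101 was higher in 87 of the 127 genes and heifer 115 in 47. Of the 39 lower genes, by contrast, heifer 115 was below every pregnant heifer in 27, and heifers 94, 107 and 113 in 29, 29 and 31. Over all tested genes, however, the median difference from the pregnant median was -0.86 in heifer 115. It was -0.27, -0.08 and -0.15 in heifers 94, 107 and 113. Heifer 115 was thus low over all genes on this scale, and its 27 cannot be read as likeness to these 3. The same counts over all tested genes are not given here. Heifer 101 was below every pregnant heifer in 10 of them and below the pregnant median in 35.

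**Figure D1:**
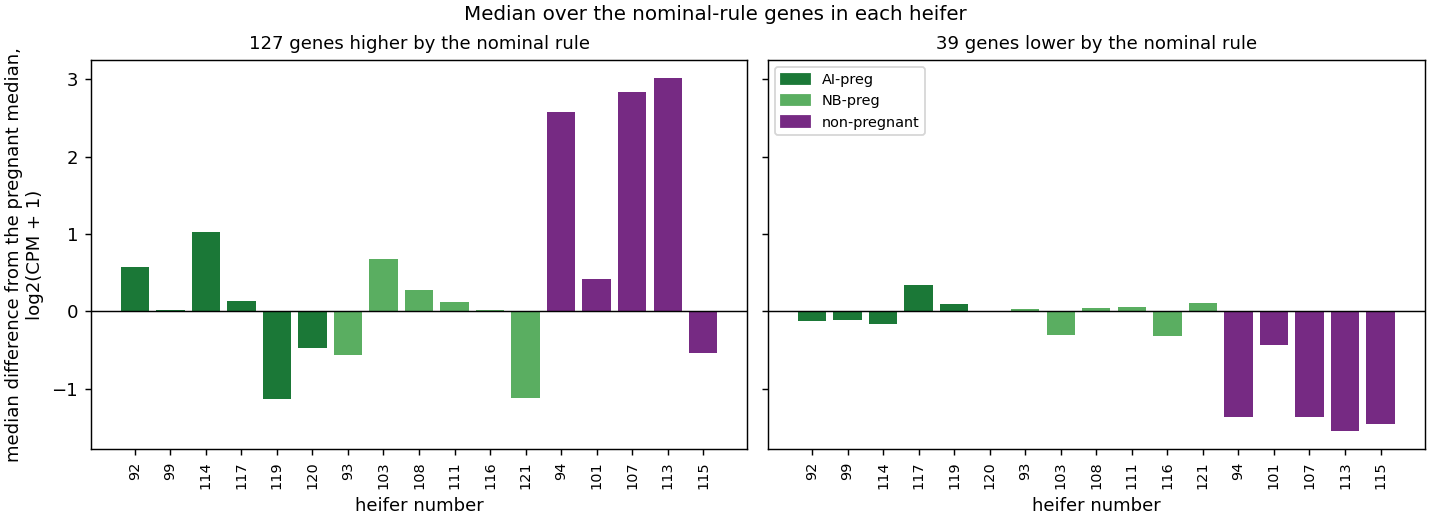
Median difference of each heifer from the pregnant median, on the log2(CPM + 1) scale, over the 127 genes higher (left) and the 39 genes lower (right) by the nominal rule, with AI-preg heifers in dark green, NB-preg in light green and non-pregnant in purple. Over the higher genes heifers 94, 107 and 113 stand at 2.58 to 3.02 and heifers 101 and 115 at 0.42 and -0.54. Over the lower genes all 5 non-pregnant heifers lie between -1.55 and -0.44. Over all tested genes, which are not drawn, heifer 115 stands at -0.86. The rule selected the higher and lower genes on the same heifers.

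No gene had all 5 non-pregnant heifers above every pregnant heifer (percent called 0). In 19 genes (0.174% of those tested), all 5 non-pregnant heifers lay below every pregnant heifer. RABGGTB, DEPDC7, SPRY2 and HSPB11 were among the 19 and also met the nominal rule. With TMM factors in place of library totals 10 genes lay below, and of these 4 SPRY2 alone stayed below. With heifer 115 left out, 102 genes had the 4 remaining non-pregnant heifers above every pregnant heifer and 82 had them below, and with heifer 101 left out the counts were 14 and 121.

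The gene of smallest p among the higher genes was CSF3R, a neutrophil marker. It encodes the receptor for granulocyte colony-stimulating factor, which drives the production of neutrophils. Its level was 1101, 12.5, 636, 1241 and 42.3 CPM in non-pregnant heifers 94, 101, 107, 113 and 115, the order kept below. In the 12 pregnant heifers it ranged from 0.402 through a median of 23.8 to 123 CPM. Heifers 94, 107 and 113 were above all pregnant heifers, and heifers 101 and 115 were inside their range. The log2 fold change was 4.20 ± 0.88 (SE, n = 5 and 12), the largest among the 127 genes, and the adjusted p was 0.447 in edgeR's quasi-likelihood test and 0.0035 in DESeq2. S100A12, a calcium-binding alarmin that neutrophils hold in quantity, stood at 11785, 527, 10637, 10794 and 109 CPM, against 74.8, 851 and 4088 CPM as lowest, median and highest of the pregnant heifers. Its log2 fold change was 2.42 ± 0.78, with the same 3 heifers above all others. TREM1, a receptor that amplifies the inflammatory response of myeloid cells, had 28.0, 12.9, 37.4, 62.2 and 1.6 CPM against 1.49, 6.47 and 17.5 CPM, and a log2 fold change of 1.91 ± 0.58. CXCR2, the receptor for neutrophil-attracting chemokines, did not meet the rule. It had 65.1, 4.56, 80.3, 100.04 and 14.9 CPM, and 2 pregnant heifers, AI-preg 114 and NB-preg 116, stood high among their groups, the latter with 85.9 CPM. Of the 12 neutrophil markers listed, these 4 had a symbol among the tested genes, and 3 were higher by the nominal rule. Some markers of other cells stood high in the same heifers. The T-cell kinase LCK and the platelet integrin ITGA2B, neither of which met the rule, were also above every pregnant heifer in heifers 94, 107 and 113. The other platelet marker tested, TUBB1, was not. It had 0.0646, 0.491 and 85.0 CPM in these 3 heifers, against a pregnant median of 650 CPM.

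The summed level of the 4 neutrophil markers ran from 167 to 12979 CPM with a median of 11391 CPM in non-pregnant heifers, and from 76.7 to 4132 CPM with a median of 946 CPM in pregnant heifers. Most of this sum came from S100A12, whose medians were 10637 and 851 CPM, so the sum largely repeats that gene. None of the 4 was at 0 in every library. A score of CXCR2 and TREM1, the mean of their log2(CPM + 1), was 5.45, 3.14, 5.80, 6.32 and 2.68 in the non-pregnant heifers and 0.69 to 4.68 in the pregnant heifers. It was above the pregnant range in the same heifers 94, 107 and 113. With the score as a covariate, the median log2 fold change of the 127 higher genes was 0.30 rather than 2.22, and 81 of the 127 kept their sign. That of the 39 lower genes was -0.96 rather than -1.62, and all 39 kept their sign. TREM1 is itself 1 of the 127 genes and the score was measured on the same libraries, so the covariate removes difference by outcome that the score shares.

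NCF1, a cytosolic subunit of the NADPH oxidase that makes superoxide, had 55.9, 19.4, 108, 155 and 2.58 CPM in non-pregnant heifers and 1.13, 9.62 and 25.0 CPM as lowest, median and highest in pregnant heifers (log2 fold change 2.69 ± 0.64, DESeq2 adjusted p = 0.011). Heifers 94, 107 and 113 were above the pregnant range. CYBB, the membrane subunit that carries the electrons, had 53.4, 1263, 173, 134 and 522 CPM and did not meet the rule. A measured member of a list is here a tested gene with a symbol. Of all such genes, 4.32% were higher and 0.944% lower by the rule. Of the 3 measured oxidase members, 1 was called. Of the 8 measured genes of Fc receptor and ITAM signalling, 3 were higher, the adaptors TYROBP and NFAM1 and the Src-family kinase FGR. TYROBP, which pairs with TREM receptors, had 205, 10.8, 162, 190.2 and 3.69 CPM against a pregnant median of 18.1 CPM and highest value of 72.1 CPM (2.26 ± 0.76). The log2 fold changes of NFAM1 and FGR were 2.71 ± 0.88 and 1.39 ± 0.47. LYN, another Src-family kinase, lay at 963 to 1459 CPM in non-pregnant and 600.3 to 2913 CPM in pregnant heifers, a full overlap.

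Of 15 myeloid transcription regulators listed, 3 had a symbol among the tested genes, and all 3 were higher by the rule. Symbols came from the study's own results on these heifers, so the 3 were not an independent choice. SPI1, known as PU.1, is required for the myeloid lineage. Its level was 299.5, 27.8, 238, 347 and 14.5 CPM, against 6.84, 37.9 and 118 CPM in pregnant heifers, so that heifers 101 and 115 lay under the pregnant median and the other 3 above the range (1.82 ± 0.64). NFE2, best known in megakaryocytes and erythroid cells and also expressed in granulocytes, had 285, 5.99, 277, 394 and 6.76 CPM against a pregnant median of 9.40 CPM (3.46 ± 0.93). KDM6B, a histone demethylase induced in activated myeloid cells, had a log2 fold change of 1.87 ± 0.52.

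**Figure D2:**
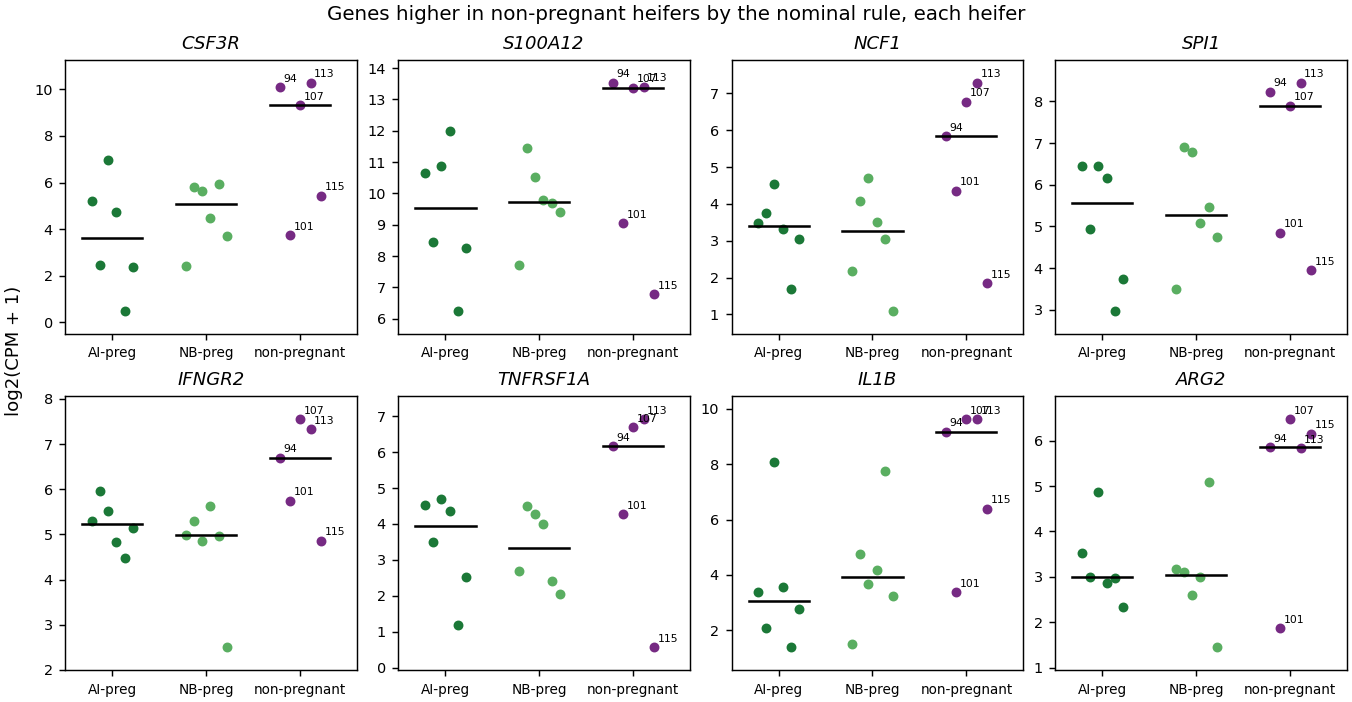
Level of 8 genes higher in non-pregnant heifers by the nominal rule, as log2(CPM + 1), with 1 point per heifer, a black line at each group's median and the numbers of the 5 non-pregnant heifers beside their points. In CSF3R, S100A12, NCF1, SPI1, IFNGR2, TNFRSF1A and IL1B heifers 94, 107 and 113 lie above every pregnant heifer, and in ARG2 heifer 115 does too while heifer 101 has 2.64 CPM.

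IFNGR2, the signalling chain of the interferon gamma receptor, had 103, 52.7, 187, 159.8 and 28.0 CPM in non-pregnant heifers and 4.67, 32.6 and 61.2 CPM as lowest, median and highest in pregnant heifers (1.64 ± 0.42, DESeq2 adjusted p = 0.011). TNFRSF1A, the main receptor for tumour necrosis factor, had 70.5, 18.2, 103, 120.0 and 0.492 CPM against 1.29, 12.7 and 25.1 CPM (2.31 ± 0.70). Heifer 115 was below every pregnant heifer for TNFRSF1A, the opposite side from heifers 94, 107 and 113. LTB, which encodes lymphotoxin beta, a ligand of the TNF family made mainly by lymphocytes, had 129, 27.6, 149, 134 and 0.983 CPM against a pregnant median of 10.8 CPM and highest value of 40.4 CPM (2.52 ± 0.80). Of the 9 measured genes of TNF and NF-kB signalling, TNFRSF1A and LTB were higher by the rule, none was lower, and all 9 had a positive fold change with a median of 1.66. Of the 8 measured cytokine and chemokine receptors, 2 were higher, CSF3R and IFNGR2, and 1 was lower, TNFRSF17.

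The interleukin-1 genes and the complement receptor C5AR1 were also among the 127, and were chosen for mention after their values were seen. IL1B, the gene of the cytokine interleukin-1 beta, had 577, 9.35, 794, 795 and 82.9 CPM against 1.61, 10.2 and 269 CPM in pregnant heifers (3.23 ± 1.03). IL1RN, which encodes the natural antagonist of its receptor, had 219, 37.4, 287, 290.2 and 418 CPM against 19.5, 31.7 and 197 CPM (2.08 ± 0.56). Heifer 115 was thus the highest of all heifers for IL1RN, and 4 of 5 non-pregnant heifers were above the pregnant range. C5AR1, the receptor for the complement fragment C5a, had 56.2, 7.91, 65.6, 61.3 and 62.7 CPM, and 1 pregnant heifer, NB-preg 116, was higher than all of them at 81.6 CPM (1.91 ± 0.73).

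Among interferon-stimulated genes, IFIT1, IFIT2 and IFIT3 were high in heifers 94, 107 and 113 and in 2 pregnant heifers. ISG20, an exonuclease active against viral RNA, and IFIT2, which belongs to the family of proteins that bind viral RNA, were 2 higher genes among the 6 measured of this list, whose median log2 fold change was 2.33. ISG20 had 16.2, 0.240, 37.3, 35.6 and 0.983 CPM in non-pregnant heifers, with heifer 101 below every pregnant heifer. In pregnant heifers its median was 0.729 CPM, with 9.00 CPM in AI-preg heifer 114 and 2.35 CPM in NB-preg heifer 116. IFIT2 had 547, 58.7, 723, 896 and 160.5 CPM in non-pregnant heifers. AI-preg heifer 114 had 514 CPM and NB-preg heifer 116 had 359 CPM, while the pregnant median was 37.4 CPM (2.24 ± 0.76). IFIT1 and IFIT3 shared this distribution and did not meet the rule. For IFIT3 the values were 872, 37.6, 1655, 955 and 182 CPM, with 518 CPM in AI-preg heifer 114, 501 CPM in NB-preg heifer 116 and a pregnant median of 26.3 CPM (2.78 ± 0.88). For IFIT1 they were 836, 62.1, 2172, 1155 and 376 CPM, with 1015 and 873 CPM in those 2 pregnant heifers (2.22 ± 0.88). Heifers 114 and 116 also had the highest scores of CXCR2 and TREM1 among the pregnant heifers, 4 and 4.68. The summed level of the 4 neutrophil markers ranked them otherwise. It was 2037 CPM in heifer 114 and 977 CPM in heifer 116, with a pregnant median of 946 CPM. AI-preg heifer 117 had 4132 CPM and NB-preg heifer 103 had 2865 CPM.

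Genes of the cytoskeleton and of migration gave 5 higher genes among 13 measured, with a median log2 fold change of 1.54 over the 13. JAML, an adhesion molecule of leukocytes that cross epithelium, had 308, 47.5, 242, 369 and 36.0 CPM against 7.60, 44.6 and 119 CPM in pregnant heifers (2.11 ± 0.54). The other 4 were PLEKHO1, a regulator of the actin cytoskeleton (2.15 ± 0.52, DESeq2 adjusted p = 0.011), LSP1, an actin-binding protein of leukocytes (2.26 ± 0.65), ARAP3, a GTPase-activating protein for ARF6 and RhoA (2.51 ± 0.69), and TIAM2, an exchange factor for Rac (3.28 ± 1.03). CORO2A, a coronin outside the list, had 216, 49.4, 199.9, 207 and 116 CPM against 18.3, 51.9 and 112 CPM, so that 4 of 5 non-pregnant heifers exceeded every pregnant one (1.51 ± 0.36). The small GTPase RHOG (2.88 ± 0.79) and ARPC1B, a subunit of the Arp2/3 complex that nucleates branched actin (2.13 ± 0.58), also met the rule and were picked for mention with their values known.

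For 3 enzymes heifer 115 stood with heifers 94, 107 and 113. ARG2, the mitochondrial arginase that splits arginine to ornithine and urea, had 56.8, 2.64, 88.3, 56.0 and 70.3 CPM against 1.73, 6.94 and 33.2 CPM in pregnant heifers (2.40 ± 0.59, DESeq2 adjusted p = 0.021). Heifer 101 alone lay inside the pregnant range. MGAM, a maltase found in neutrophil granules as well as the gut, had 42.0, 3.60, 34.2, 17.4 and 37.5 CPM against a pregnant median of 2.02 CPM and highest value of 19.5 CPM (2.51 ± 0.70). GPAT3, which starts the synthesis of triacylglycerol, had a log2 fold change of 1.93 ± 0.57. These were the 3 called of 6 measured genes of arginine, lipid and eicosanoid enzymes. Among 8 genes of glycolysis, PFKFB4, which sets the level of the glycolytic activator fructose-2,6-bisphosphate, was higher (2.26 ± 0.81) and the median fold change of the 8 was 1.57. The early response gene ATF3, a transcription factor induced by stress, had 28.0, 4.08, 23.3, 16.2 and 14.6 CPM against a highest pregnant value of 11.4 CPM (1.55 ± 0.49), and was 1 of 4 genes measured on its list.

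Other higher genes were named by their small p. DUSP2, a phosphatase of MAP kinases in activated leukocytes, had 103, 1.44, 153, 149.5 and 3.32 CPM against 0.121, 2.66 and 21.3 CPM (3.73 ± 0.92). CEP164, a protein of the centriole's appendages, was higher in 4 of 5 non-pregnant heifers than in every pregnant one (2.7 ± 0.68). C3H1orf226, of uncharacterized function, had a log2 fold change of 3.21 ± 0.76. HRH2, the histamine H2 receptor, had 24.1, 3.36, 13.1, 14.1 and 0.123 CPM against a pregnant median of 1.61 CPM (2.37 ± 0.72). The identifiers ENSBTAG00000016355, ENSBTAG00000052111 and ENSBTAG00000053179, which carry no symbol in the sources used here, had log2 fold changes of 2.11 ± 0.47, 3.70 ± 0.93 and 3.22 ± 0.82.

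Genes of lymphocytes and other leukocytes gave few calls. GZMB, the granzyme of cytotoxic T and natural killer cells, was higher (2.77 ± 0.79), with 4.45, 4.32, 11.8, 19.0 and 0 CPM against 0.402, 0.833 and 5.28 CPM, and NKG7, the other marker measured of these cells, was not called. LCK, the only T-cell marker with a symbol among the tested genes, had 400.5, 41.0, 288, 342 and 3.32 CPM against 7.04, 59.8 and 247 CPM. The B-cell receptor component CD79A had 252, 92.1, 167, 504 and 3.56 CPM against 4.30, 45.2 and 239 CPM, and the B-cell lectin CD22 had 277, 527, 194, 608 and 7.74 CPM against 27.2, 195 and 528 CPM. Neither was called, and heifer 115 was below every pregnant heifer for LCK, CD79A and CD22. ITGA2B, a subunit of the fibrinogen receptor of platelets, had 41.4, 6.71, 49.4, 64.3 and 0.123 CPM against 0.282, 3.88 and 29.3 CPM. TUBB1, the tubulin of platelets, ranged from 0.0646 to 1530.1 CPM in non-pregnant heifers, lowest in 94 and highest in 115, and from 5.00 to 1860.2 CPM in pregnant heifers, so the 2 platelet markers measured did not rank the heifers alike. IL5RA, the eosinophil receptor for interleukin-5, had 22.4, 12.9, 36.8, 21.2 and 15.2 CPM against 3.73, 7.45 and 17.4 CPM (1.32 ± 0.44) and did not meet the rule. No monocyte, basophil, dendritic cell or red cell marker had a symbol among the tested genes.

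Ribosomal protein genes encode the proteins of the ribosome and are transcribed in every cell. RPL36, RPL28 and RPS15 were higher by the rule among 71 measured, of which 68 had a positive fold change with a median of 0.97. RPL36 had 64.0, 4.08, 153, 279.7 and 1.97 CPM against 0.405, 4.20 and 45.4 CPM (3.59 ± 0.91), RPL28 had a log2 fold change of 1.99 ± 0.64 and RPS15 of 2.18 ± 0.73. Reads with several alignments had been removed before counting and ribosomal protein genes have near-identical copies, so their levels are uncertain. The summed level of the 71 genes was 5717 CPM in heifer 115 and reached 130367 CPM in non-pregnant heifers, and it was 9504 to 89706 CPM in pregnant heifers. Of 32 genes of the mitochondrial respiratory chain, none was called and the median was 0.64.

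**Figure D3:**
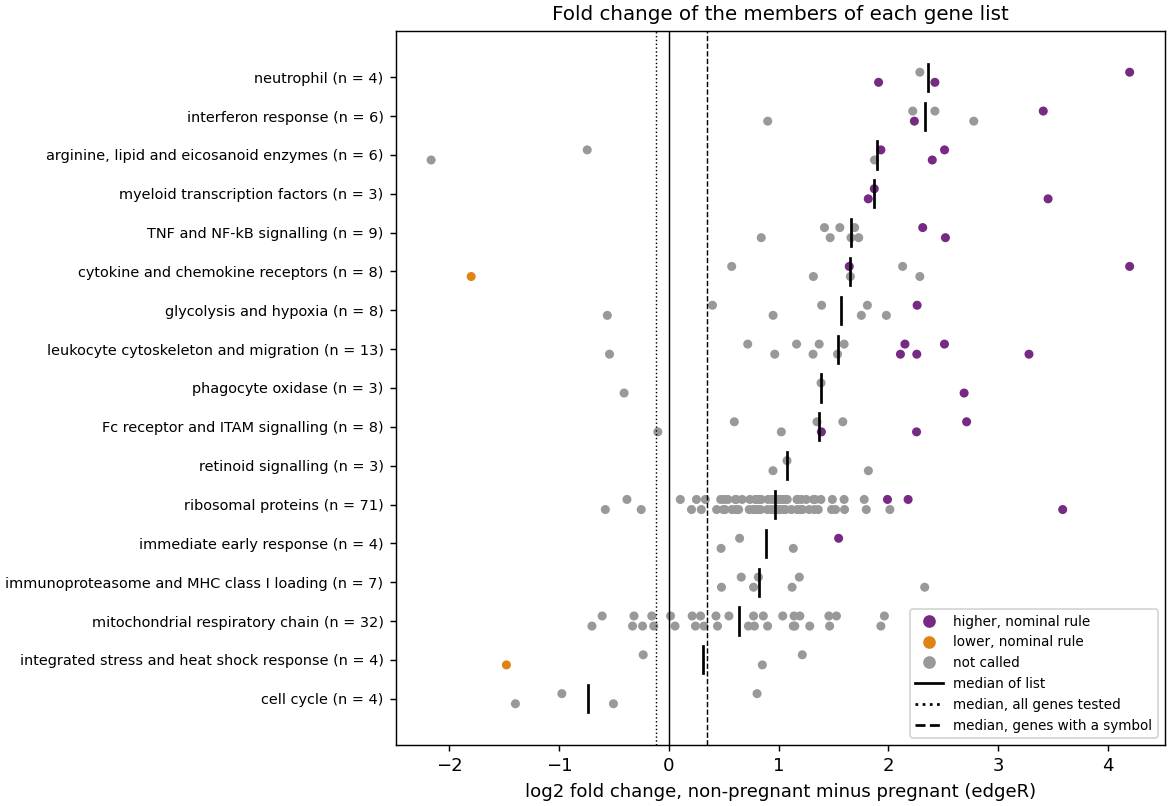
Log2 fold change (edgeR, non-pregnant minus pregnant) of each measured member of 17 lists with 3 or more members, with purple points for genes higher and orange for genes lower by the nominal rule, grey for genes not called and a black line at each list's median. List medians run from -0.74 for cell cycle to 2.36 for neutrophil markers, the dotted line marks the median of all genes tested at -0.12 and the dashed line that of the genes with a symbol at 0.35.

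List counts must be read against how genes got their symbols. Symbols came from the study's own supplementary tables, which hold genes that figured in its results on these heifers, and 2224 of the 10942 tested genes had one. Among these, 4.32% were higher and 0.944% were lower by the nominal rule, and 58.8% had a positive fold change with a median of 0.35, against 43.7% of all genes tested. Members of a list without a symbol were not reached. The 18 genes that the study names for differential abundance and that were matched by symbol gave 13 higher and 2 lower. This is not independent evidence, since they were chosen on these heifers. CEACAM4 and FCGR2, which the study also names, were not among the 18. ENSBTAG00000049346, whose description is that of CEACAM4, was higher by the rule.

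Few of the 39 lower genes were on a list. RABGGTB, the catalytic beta subunit that attaches lipid anchors to Rab proteins of vesicle traffic, had 92.6, 175, 121, 72.5 and 169 CPM in non-pregnant heifers. In pregnant heifers it had 191, 267 and 607 CPM as lowest, median and highest. The groups did not overlap, and the log2 fold change was -1.37 ± 0.34 (adjusted p = 0.447 in edgeR's quasi-likelihood test, 0.14 in DESeq2). SPRY2, an inhibitor of growth factor signalling through the MAP kinase pathway, had 10.5, 12.5, 3.43, 1.99 and 6.02 CPM against 13.4, 21.4 and 34.0 CPM (-1.62 ± 0.45). DEPDC7, of largely uncharacterized function, had 2.78, 7.67, 4.29, 6.57 and 7.13 CPM against 8.55, 17.1 and 33.2 CPM (-1.72 ± 0.47). HSPB11, also known as the intraflagellar transport protein IFT25, had 5.81, 6.47, 4.17, 3.04 and 8.23 CPM against 8.33, 16.6 and 23.0 CPM (-1.46 ± 0.42). In each of these 4 genes the heifers 101 and 115 were on the same side as the other 3 when scaled by library total. With TMM factors, 0.677 for heifer 115, this heifer entered the pregnant range for RABGGTB, DEPDC7 and HSPB11. SPRY2 stayed separated.

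HSPH1, HSPA14, EMC7 and PSMG1 act in the folding or assembly of proteins. HSPH1, a heat shock protein of the HSP110 family that recharges HSP70, had 57.4, 181, 47.5, 88.9 and 49.6 CPM against 114, 190.4 and 527 CPM in pregnant heifers (-1.48 ± 0.46), so that only heifer 101 lay inside the pregnant range. HSPA14, an HSP70 protein bound to the ribosome and named after its values were seen, had 71.1, 158, 74.0, 73.9 and 81.4 CPM against 87.5, 178 and 222 CPM (-0.87 ± 0.28). EMC7, a subunit of the complex that inserts membrane proteins into the endoplasmic reticulum, had 32, 59.7, 35.7, 32.9 and 25.7 CPM against 41.1, 81.5 and 133 CPM (-1.21 ± 0.32). PSMG1, a chaperone of proteasome assembly, had 47.2, 78.2, 64.5, 55.2 and 36.7 CPM against 77.7, 101 and 146 CPM (-0.90 ± 0.26). For HSPH1, HSPA14, EMC7 and PSMG1 alike, 4 of 5 non-pregnant heifers were below every pregnant heifer and heifer 101 was within the range. HSPH1 was the 1 gene called of 4 measured of stress and heat shock.

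**Figure D4:**
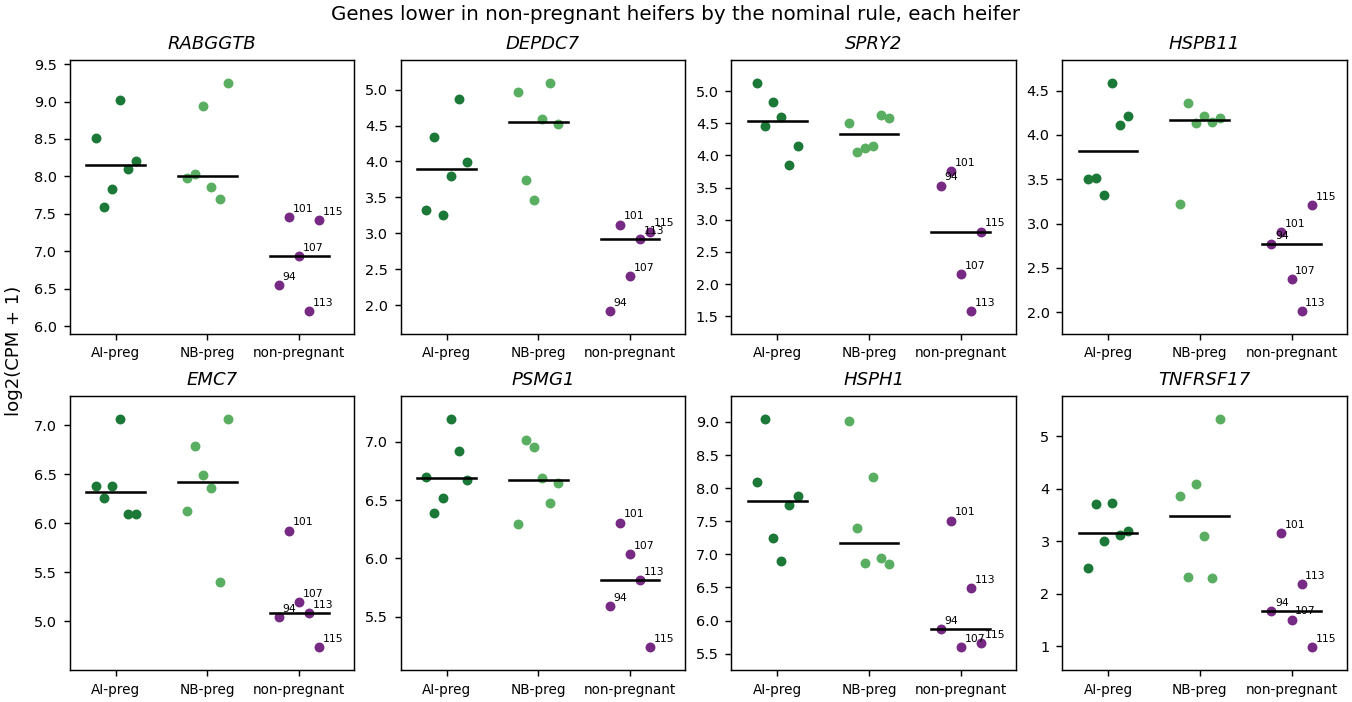
Level of 8 genes lower in non-pregnant heifers by the nominal rule, as log2(CPM + 1), with 1 point per heifer, a black line at each group's median and the numbers of the 5 non-pregnant heifers beside their points. In RABGGTB, DEPDC7, SPRY2 and HSPB11 all 5 non-pregnant heifers lie below every pregnant heifer, and in EMC7, PSMG1, HSPH1 and TNFRSF17 heifer 101 lies within the pregnant range.

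The remaining lower genes named by their p served other functions. PPAT catalyses the committed step of purine synthesis (-0.94 ± 0.28), TERF2IP, also known as RAP1, is part of the shelterin complex at telomeres (-1.14 ± 0.33) and TMEM14A is a mitochondrial membrane protein (-1.60 ± 0.49). SMIM26, a small membrane protein, had 25.3, 16.5, 10.9, 17.4 and 18.9 CPM against 22.4, 36.9 and 196 CPM (-1.78 ± 0.52). ZC3H11A, a zinc finger protein of mRNA export, had a log2 fold change of -0.94 ± 0.29, and another tested identifier carries the same symbol and was not called, so its level is uncertain. ENSBTAG00000001938, ENSBTAG00000051183, ENSBTAG00000042833 and ENSBTAG00000005498, which carry no symbol in the sources used here, had -1.75 ± 0.44, -1.82 ± 0.54, -1.85 ± 0.56 and -1.03 ± 0.32. MGAT4D, a gene of the glycosyltransferase family that the study names, had 0, 5, 0, 0 and 4 read pairs in the non-pregnant heifers and 1 to 187 in the pregnant heifers.

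TNFRSF17, the receptor BCMA of plasma cells, had 2.19, 7.91, 1.84, 3.53 and 0.983 CPM against 3.91, 7.94 and 39.1 CPM in pregnant heifers (-1.80 ± 0.65) and met the nominal rule. JCHAIN, the joining chain of secreted antibody polymers and the other plasma cell marker measured, did not. It had 544, 1635, 182, 222 and 809.6 CPM against 227, 1476 and 3322 CPM (-1.23 ± 0.60). NUF2, a kinetochore protein of dividing cells named after its values were seen, was lower by the rule (-2.04 ± 0.69). PCNA, the sliding clamp of DNA replication, had 261, 236, 181, 142 and 255 CPM against 269, 352 and 844 CPM, with no overlap, yet did not meet the rule (-0.97 ± 0.31). None of the 4 measured genes of the cell cycle list was called, and their median was -0.74. TSN, a nucleic acid-binding protein, ZNF706, a small zinc finger protein, and ENSBTAG00000001107 showed the same separation without a call, at -0.92 ± 0.26, -0.99 ± 0.27 and -0.98 ± 0.24. These separations hold for scaling by library total. With TMM factors, heifer 115 entered the pregnant range for PCNA, TSN, ZNF706 and ENSBTAG00000001107.

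Within the pregnant group the called genes did not divide by the route to pregnancy in 1 direction. The AI-preg median was above the NB-preg median in 69 of the 127 higher genes and in 18 of the 39 lower genes. In all 127 and all 39, the non-pregnant median lay beyond both pregnant subgroup medians in the direction of the call, as the selection on the pooled contrast favours. The 2 retinoid receptors measured were not called, and the study names the first of them, RARA. RARA had 32, 24.7, 30.9, 52.0 and 32.8 CPM against 7.24, 15.5 and 34.4 CPM (0.95 ± 0.37), and RXRA had a log2 fold change of 1.08 ± 0.41. N6AMT1, a methyltransferase among the genes that the study used for prediction, had 5.94, 12, 1.10, 4.08 and 5.90 CPM against 8.92, 14.1 and 25.4 CPM (-1.28 ± 0.48), and was not called either.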

How the data were processed

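PWBC libraries were made by the authors with the TruSeq Stranded mRNA kit, 1 per heifer. Per the submitters' notes and methods, the reads were aligned with HISAT2 2.1.0 to the bovine assembly ARS-UCD1.2, reads with several alignments were removed, duplicates were ignored, and pairs were counted by strand with featureCounts 1.6.0. The authors deposited these raw counts per gene, whole numbers without normalization or filter. The plasma table was not used here, and gene lengths and sequences were not at hand.

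Genes with 2 CPM or more in 5 or more libraries were fitted with edgeR 4.0.16 (quasi-likelihood, robust, pregnant against non-pregnant, library total over tested genes, Benjamini-Hochberg adjustment over 10942 genes) under R 4.3.3. DESeq2 1.42.0 and edgeR's likelihood ratio test entered the nominal rule, and limma 3.58.1 (voom with sample quality weights) was an alternative. The authors restricted their fit to protein-coding genes, which could not be selected here. On simulated data with 200 changed genes among 10942, the quasi-likelihood test recovered 42 of 50 genes at a log2 fold of 3 and 27 of 50 at 2, 31 of 50 at -3 and 20 of 50 at -2, with 3 false calls. Libraries of a group differed far beyond sampling noise, so none was a duplicate. Depth limits low genes most in non-pregnant heifers.

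Members and gene lists were chosen with earlier results of these data known. Named genes were the 15 of smallest p in each direction by the nominal rule, called members of the lists, the 2 of smallest p and the 2 most abundant of each list, genes the study names and the 5 most abundant genes. Not every gene that the rule allows is printed, and others are marked where they were chosen after their values were seen. Some items are not reported here. Symbols came from the supplementary tables. Alternatives covered scaling, test, filter, thinning to equal depth, a 3-group fit, a neutrophil covariate and each heifer left out.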

Additional observations from a re-analysis of the deposited data

Results flagged for a closer look

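In the groups of 5 or 6 heifers, 25 values of the named genes and library totals stood apart from the rest of their group by Dixon's criterion, among 222 groups examined. Chance alone puts about 1 in 20 groups past that criterion. All values here are log2(CPM + 1).

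AI-preg heifer 114 was the highest of 6 for C5AR1 (4.83, others at most 3.13), IL1B (8.08, others at most 3.57), IL1RN (7.56, others at most 5.29), TIAM2 (3.26), CXCR2 (4.91), IFIT1 (9.99), IFIT2 (9.01) and IFIT3 (9.02), and the lowest for HSPA14 (6.47). NB-preg heifer 116 was the highest of its group for TIAM2 (2.98), CXCR2 (6.44) and IFIT1 (9.77).

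Non-pregnant heifer 101 was the lowest of 5 for ARG2 (1.86, others 5.83 to 6.48), C5AR1 (3.16, others 5.84 to 6.06), GPAT3 (2.81) and IL1RN (5.26), and the highest for ENSBTAG00000005498 (7.23) and HSPA14 (7.31).

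AI-preg heifer 117 was the highest for EMC7 (7.06) and ZNF706 (8.17). GZMB was highest in AI-preg heifer 99 (2.65) and in NB-preg heifer 103 (1.35). NB-preg heifer 121 was the lowest for IFNGR2 (2.50) and the highest for ENSBTAG00000001938 (7.98), and NB-preg heifer 93 was the lowest for HSPB11 (3.22).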

How the results depend on the processing

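No paired analysis was possible because each heifer belongs to 1 outcome group, so no number is shared between the groups compared. At the adjusted threshold, edgeR's quasi-likelihood test called 0 genes in either direction with TMM factors, with the stricter filter, in the 3-group fit, with the neutrophil covariate, after thinning and without each heifer in turn (0 to 0), while 55 and 93 genes were under a nominal p of 0.05 with the covariate. DESeq2 gave 59 higher and 2 lower, the likelihood ratio test 19 higher, limma voom with quality weights 2283 higher and 3240 lower, and the quasi-likelihood test without a filter 9 higher. The nominal rule gave 549 and 171 genes without its leave-one-out part and 193 and 85 without a filter. With TMM factors 1 gene lay above and 10 lay below every pregnant heifer, and leaving out 1 heifer gave 0 to 102 above and 19 to 121 below. The library ratio ranged from 2.14 to 3.17 without 1 heifer.

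With alternatives added after seeing the data, leaving out heifer 115 gave 743 and 552 genes by DESeq2, and leaving out heifer 101 gave 227 and 107. Without heifers 94, 107 or 113 in turn DESeq2 gave 4, 1 and 1 higher genes. The nominal rule without its leave-one-out part ranged from 200 (without heifer 113) to 1192 (without heifer 115) higher and from 69 to 882 lower genes, with the same 2 heifers at the ends. The cause was not tested.

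Of 1861 alternative values for 73 genes given with a fold change, 13 had the opposite sign, all with the neutrophil covariate, namely TYROBP (-1.47), S100A12 (-1.42), RPL36 (-0.84), NFE2 (-0.75), SPI1 (-0.70), NFAM1 (-0.69), PFKFB4 (-0.42), TNFRSF1A (-0.37), ISG20 (-0.34), TREM1 (-0.28), PLEKHO1 (-0.14), FGR (-0.14) and JAML (-0.13). A further 117 values passed the adjusted threshold, 73 of them in the voom fit. Depth limits the low genes of non-pregnant heifers, and 5 non-pregnant heifers that differ among themselves limit every comparison.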
